A study of Mus musculus with 14 samples.

Results

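The 36 genes described here encode the folding machinery of the endoplasmic reticulum (ER), the sensors and transcription factors of the unfolded protein response (UPR), and the proteins that remove misfolded chains from the ER. They were taken from a list of ER chaperone, disulfide isomerase, stress sensor and ER degradation genes, and a gene was a member if its symbol was present in the expression files of both mice. All 36 listed genes were found among 20515 genes with a usable symbol. By role they fell into 7 groups: 7 Hsp70 and Hsp90 chaperones and cofactors, 2 lectin chaperones, 5 disulfide isomerases, 3 prolyl isomerases, 2 soluble stress proteins, 6 sensors and transcription factors, and 11 genes of ER degradation.

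The study asked how the super-enhancer and promoter of *Wap*, a milk protein gene, act on the neighboring gene *Tbrg4*. Its 14 samples came from mouse mammary tissue, and the 2 analysed here are total RNA-seq libraries of the group WT_wTbrg4 at day 10 of lactation (L10), replicates 1 and 2, taken here as a mouse each. The other 12 samples are ChIP-seq libraries and were not analysed here. These females carried a wild-type allele of the locus and a Wap-Tbrg4 allele, in which a CRISPR-Cas9 deletion joins the *Wap* promoter to the body of *Tbrg4*. The allele was made in C57BL/6 zygotes, and the fused gene is expressed in mammary tissue only. The age of the mice was not given in the sources used here. RNA-seq values of wild-type mice were not analysed here, so nothing below compares genotypes. The labels do not say whether the replicates came from separate animals or from littermates, and with 1 group of 2 samples no test was run.

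Proteins that enter the secretory pathway fold in the ER with the help of chaperones and of enzymes that form disulfide bonds or turn prolyl bonds. When unfolded chains accumulate, the sensors IRE1, PERK and ATF6 activate the transcription factors XBP1, ATF4 and the cleaved form of ATF6, which raise the synthesis of chaperones and of the degradation machinery. Lactating alveolar cells are professional secretory cells whose ER handles large amounts of casein and whey protein.

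Several UPR target genes are known to carry the ER stress response element (ERSE), CCAAT followed by 9 bases of any kind and then CCACG. Its letters were looked for, on both strands, in RefSeq promoters of GRCm38.p6 that run from 250 bases before to 50 bases after the start of each gene. The promoter table held 32 of the 36 members, and *Manf*, *Hyou1*, *Derl1* and *Atf6* were not matched. The exact letters were present in 9 of these 32 members and in 37 of all 27025 genes with a promoter, or 0.137%. Because the element was first described in genes of this kind, the high share among the members is no independent result. The 10 matches are shown because they are the shared sequence feature of the members that include the most abundant chaperones. Capitals mark the CCAAT and CCACG boxes, or ATTGG and CGTGG where the element reads on the opposite strand of the gene, and 5 bases are given on each side.

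Hspa5 (chr2:34772020-34772048, plus strand): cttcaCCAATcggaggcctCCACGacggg
Hsp90b1, nearer match (chr10:86705528-86705556, minus strand): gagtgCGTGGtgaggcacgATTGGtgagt
Hsp90b1, farther match (chr10:86705633-86705661, minus strand): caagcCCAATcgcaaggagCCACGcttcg
Dnajc3 (chr14:118937822-118937850, plus strand): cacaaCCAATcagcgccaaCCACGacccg
Calr (chr8:84847070-84847098, minus strand): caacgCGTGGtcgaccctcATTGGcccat
Canx (chr11:50325795-50325823, minus strand): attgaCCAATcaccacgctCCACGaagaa
Pdia6 (chr12:17266486-17266514, plus strand): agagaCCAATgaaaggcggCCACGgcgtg
Creld2 (chr15:88819515-88819543, plus strand): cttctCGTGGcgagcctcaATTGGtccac
Syvn1 (chr19:6046527-6046555, plus strand): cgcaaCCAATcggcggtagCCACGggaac
Derl3 (chr10:75893237-75893265, plus strand): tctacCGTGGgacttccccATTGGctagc

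All 10 stretches lie before the start of their gene, from 44 bases upstream in *Syvn1* to 212 bases upstream for the farther match of *Hsp90b1*. Of these, 9 lie outside any annotated gene, and the stretch of *Canx* lies within the predicted gene *Gm46280*. The windows of 2 other genes hold the same stretch as a member, *Alg12*, a mannosyltransferase gene on the other strand, with *Creld2*, and *1700122E12Rik* with *Calr*.

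A shorter variant, ERSE-II, has ATTGG, 1 free base and CCACG, and it was present in 2 of 32 members and in 0.0444% of all genes with a promoter. It shares its CCACG box with the longer element.

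Dnajb11 (chr16:22857847-22857867, plus strand): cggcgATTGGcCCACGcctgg
Herpud1 (chr8:94386372-94386392, plus strand): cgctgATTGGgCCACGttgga

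In *Herpud1* the match began 52 bases before the start, and in *Dnajb11* it lay just inside the gene, 7 bases after the start. The XBP1 element TGACGTGG, which contains CGTGG, was found in *Vcp* and in 0.714% of all genes, and the ATF4 element TGATGNAA was found in *Herpud1* and in 4.51% of all genes. None of the 4 motifs was found in 20 of the 32 members. A match is a description of letters, and no match says only that these letters are not in this window.

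The mammary tissue had the markers of secretory alveolar epithelium. The casein gene *Csn2* was listed at 108555.0 and 481937.0 exon FPKM in replicates 1 and 2, and *Elf5*, the transcription factor of alveolar cells, at 185.8 and 204.8. FPKM are fragments per kilobase of exon, scaled by a factor for each library, so levels can be compared between genes per length. Of the 7 alveolar markers *Krt8* had the lowest mean, 23.0 FPKM. In bulk tissue, fewer cells of a type and less RNA per cell cannot be told apart.

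The libraries differed in how far milk protein RNA filled them. The 10 most abundant genes held 79.5% of the summed exon FPKM in replicate 1 and 90.6% in replicate 2. The reads behind the values were estimated from low values of short genes, most of which are near whole multiples of what 1 read is worth. By that estimate 12153660 exon reads were counted in replicate 1 and 11349338 in replicate 2, and without the 10 most abundant genes 4963668 and 2499951. The same FPKM therefore rests on 1.98 times as many reads in replicate 1. Over the 36 members, the median was 949 exon reads in replicate 1 and 437 in replicate 2, and 2 and 6 members had fewer than 100.

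ER folding and UPR genes were abundant as a group in both mice. Of the 36 members, 35 reached a mean of 1 exon FPKM, against 48.0% of all genes. A mean of at least 10 was reached by 30 of 36 members, against 15.2% of all genes, and a mean of at least 100 by 8 of 36, against 1.02%. The median over all 36 members was 24.8 FPKM, and over all genes it was 0.75. The shares and the median of all genes include the 30.2% of genes listed at 0 in both mice. Among genes with a mean of at least 1, the medians were 25.2 for 35 members and 5.7 for all 9845 genes. The members summed to 2911 FPKM in replicate 1 and 2578 in replicate 2. This was 0.341% and 0.144% of all exon FPKM, and 1.66% and 1.53% when the 10 most abundant genes were left out of the total. As secretory cargo, 7 milk protein genes were chosen (*Wap*, *Lalba*, *Csn2*, *Csn3*, *Csn1s1*, *Csn1s2a* and *Csn1s2b*). They summed to 192 times the members in replicate 1 and to 585 times in replicate 2. Other genes of secreted milk proteins, such as *Glycam1*, were not part of this sum.

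**Figure D1:**
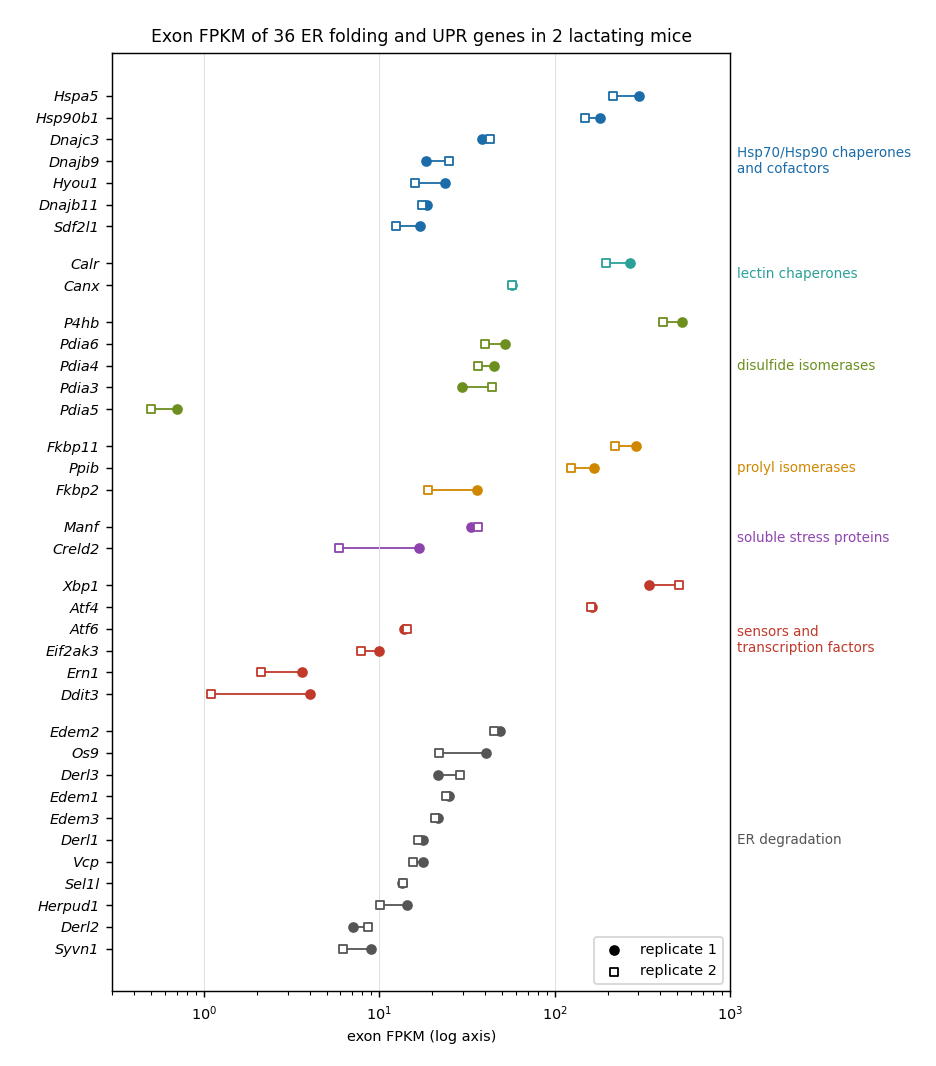
Exon FPKM of the 36 members on a log axis, with a filled circle for replicate 1, an open square for replicate 2 and a line joining the mice. Rows are grouped by role and ordered by the mean, from *P4hb* at 534.0 and 415.2 down to *Pdia5* at 0.7 and 0.5.

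Most neighbors in the order of levels overlapped. Ordered by their mean, 7 of 35 neighboring pairs did not overlap, meaning that both mice of the higher gene exceeded both of the lower. The pairs that stood apart were *Xbp1* over *Hspa5*, *Calr* over *Hsp90b1*, *Ppib* over *Canx*, *Canx* over *Edem2*, *Atf6* over *Sel1l*, *Syvn1* over *Ern1* and *Ddit3* over *Pdia5*. The gap between *Ppib* and *Canx* set off the 8 members above 100 FPKM from the rest. From *Edem2* to *Atf6*, 17 consecutive pairs overlapped. This rule compares values across the mice, so it depends on their scale. With each mouse rescaled to a sum of 1000000, 2 neighboring pairs did not overlap. Within each mouse, a comparison chosen after seeing the data, 12 of the 35 pairs kept their order in both, which adds 5 pairs to the 7.

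Among the Hsp70 and Hsp90 chaperones, *Hspa5* and *Hsp90b1* were set well above their cofactors. *Hspa5* (chr2:34772090-34776529) encodes BiP, the Hsp70 of the ER lumen, which binds unfolded chains and also the lumenal parts of the UPR sensors. It was listed at 301.4 and 215.1 FPKM (mean 258 ± 61.0 SD, n = 2). *Hsp90b1* (chr10:86690841-86705444), the Hsp90 of the ER, was at 181.7 and 148.5 FPKM. *Hspa5* exceeded *Hsp90b1* 1.66-fold in replicate 1 and 1.45-fold in replicate 2. *Hyou1*, a large Hsp70-like protein that exchanges nucleotide on BiP, was at 23.8 and 15.9 FPKM. Thus 12.7 and 13.5 times as much *Hspa5* as *Hyou1* RNA was present per length. This ratio changed little between the mice, before any correction for GC content.

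Of the J-domain cochaperones, which hand clients to BiP, *Dnajc3* was the highest, at 38.3 and 42.6 FPKM. *Dnajb9* was at 18.4 and 24.9 FPKM, and its coding sequence has a copy of 97.3% identity on chromosome X, so its reads may be shared. *Dnajb11* was at 18.8 and 17.4 FPKM. The values of *Dnajb9* and *Dnajb11* overlapped, and those of *Dnajc3* lay above both. *Sdf2l1*, which joins complexes of BiP and DNAJB11, was listed at 17.1 and 12.4 FPKM.

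The lectin chaperones hold glycoproteins that carry a trimmed sugar chain, calreticulin in the lumen and calnexin in the membrane. *Calr* (chr8:84842088-84846931) was at 269.9 and 195.8 FPKM. *Canx* (chr11:50293957-50325673) was at 57.1 and 57.3 FPKM, the ratio between the mice nearest to 1 among the 35 members with a mean of at least 1, before any correction for GC content. The soluble lectin exceeded the membrane lectin 4.73-fold and 3.42-fold.

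Disulfide isomerases spanned the whole range of levels. *P4hb* (chr11:120560298-120573253) encodes protein disulfide isomerase itself, which is also a subunit of prolyl 4-hydroxylase, and it had the highest mean of the members, at 534.0 and 415.2 FPKM (mean 475 ± 84.0 SD, n = 2), although *Xbp1* was above it in replicate 2. It ranked 46 among all 20515 genes. *Pdia6* was at 51.9 and 40.0 FPKM, and *Pdia4* was at 44.8 and 36.7. *Pdia3*, the isomerase that works with the lectin chaperones, was at 29.6 and 43.9 FPKM. These 3 genes overlapped one another, and all were far below *P4hb*, which exceeded *Pdia3* 18.0-fold in replicate 1 and 9.46-fold in replicate 2. *Pdia5* was the lowest of the 36 members, at 0.7 and 0.5 FPKM. Those values rest on an estimated 13 and 5 reads, and no difference between the mice was detectable at this depth.

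The prolyl isomerases, which speed the turn of bonds before proline, were led by *Fkbp11*. This gene (chr15:98724368-98728198), whose product is an FK506-binding protein of secretory cells, was at 292.2 and 220.3 FPKM. *Ppib*, which encodes cyclophilin B, was at 166.4 and 124.4 FPKM. *Fkbp2* was at 36.1 and 18.9 FPKM. The 3 genes did not overlap, and *Fkbp11* exceeded *Fkbp2* 8.09-fold and 11.7-fold. Exons of *Fkbp2* share 765 bp with *LOC114841036* on the same strand and those of *Ppib* share 520 bp with *Snx22* on the other strand, so both values are uncertain.

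*Manf* and *Creld2* encode soluble ER proteins induced by the UPR. *Manf* was at 33.2 and 36.7 FPKM. *Creld2* was at 16.9 and 5.9 FPKM, the widest gap on the scale of FPKM plus 1 among the members with a mean of at least 1.

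Of the sensors and transcription factors, the factors *Xbp1* and *Atf4* were abundant and the sensors were not. *Xbp1* (chr11:5520641-5525993) encodes the factor whose mRNA is spliced by IRE1, and its values of 346.5 and 508.5 FPKM (mean 428 ± 115 SD, n = 2) placed it at rank 50 of all genes. Exon FPKM sum all exons of a gene, so spliced and unspliced *Xbp1* mRNA were not separated. *Atf4* (chr15:80255184-80257545), which PERK controls mainly at translation, was at 164.0 and 160.0 FPKM. *Xbp1* exceeded *Atf4* 2.11-fold and 3.18-fold. *Atf6*, the membrane-bound factor released by cleavage, was at 13.9 and 14.3 FPKM.

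The kinase sensors were lower still. *Eif2ak3*, which encodes PERK, was at 9.9 and 7.9 FPKM. *Ern1*, which encodes IRE1, was at 3.6 and 2.1 FPKM. Levels fell from *Atf6* over *Eif2ak3* to *Ern1* in both mice, with *Atf6* at 3.86 and 6.81 times and *Eif2ak3* at 2.75 and 3.76 times *Ern1*. *Xbp1* exceeded *Ern1* 96.2-fold and 242-fold. *Ddit3*, which encodes the stress factor CHOP and lies downstream of ATF4, was at 4.0 and 1.1 FPKM. *Atf4* thus exceeded *Ddit3* 41.0-fold and 145-fold, but the values of *Ddit3* rest on an estimated 35 and 5 reads.

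The 11 genes of ER degradation were expressed at moderate levels, with means from 7.6 to 47.0 FPKM. EDEM proteins trim mannose on misfolded glycoproteins. *Edem2* led the family and the whole group at 48.8 and 45.2 FPKM. *Edem1* was at 25.0 and 23.9 FPKM, and *Edem3* was at 21.5 and 20.7. *Edem2* exceeded *Edem1* by 1.95 and 1.89 times and *Edem3* by 2.27 and 2.18 times. The proportions within the family were thus nearly equal in the mice, before any correction for GC content. After it, the log2 ratios of replicate 2 over replicate 1 were 0.15 for *Edem2*, -0.14 for *Edem1* and -0.31 for *Edem3*. *Os9*, a lectin that passes glycoproteins to the ubiquitin ligase, was at 40.6 and 21.9 FPKM.

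Derlins form part of the channel through which chains leave the ER. *Derl3*, known from secretory cells, was the highest at 21.5 and 28.9 FPKM. *Derl1* was at 17.7 and 16.7 FPKM, and a copy of its coding sequence on chromosome 12 has 97.1% identity. *Derl2* was at 7.1 and 8.6 FPKM. *Derl3* exceeded *Derl1* 1.21-fold and 1.73-fold and *Derl2* 3.03-fold and 3.36-fold, and the order was the same in both mice.

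The ubiquitin ligase itself was among the lower genes. *Syvn1*, which encodes the ligase HRD1, was at 9.0 and 6.2 FPKM. *Sel1l*, its adaptor, was at 13.4 and 13.6 FPKM. *Herpud1*, which binds the ligase complex, was at 14.4 and 10.1 FPKM. *Sel1l* exceeded *Syvn1* in both mice. *Vcp*, the ATPase that pulls chains out of the membrane, was at 17.8 and 15.6 FPKM, but a copy of its coding sequence on chromosome X has 99.6% identity.

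Members with the exact ERSE had a higher median level, but their range overlapped that of the others. The 9 members with the exact element had a median of 46.0 FPKM, and the 23 others with a promoter had 21.6. With 1 mismatch allowed the medians were closer, 27.5 for 17 members with the element and 24.4 for 15 without. The group with the element ran from *Hspa5* at 301.4 and 215.1 FPKM down to *Syvn1* at 9.0 and 6.2. Members above 100 FPKM without it were *P4hb*, *Xbp1*, *Fkbp11*, *Atf4* and *Ppib*. Outside the members, 28 genes had the exact element, and of the 21 with FPKM in the files 1 reached a mean of 10. This was *Acacb*, an acetyl-CoA carboxylase gene, at 170.4 and 92.3 FPKM, named after its value was seen. Next among them was *Ero1lb*, an oxidase that supplies disulfide bonds to protein disulfide isomerase, at 4.6 and 5.7 FPKM.

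Intron reads come mostly from unspliced RNA, and for most members their level per length was far below that of exons. The gap was small in *Ddit3*, with exons at 4.0 and 1.1 FPKM and introns at 0.7 in both mice. Its exon value in replicate 2 rests on an estimated 5 reads. The gap was also small in *Syvn1*, whose introns were at 1.5 and 1.4 FPKM against exons at 9.0 and 6.2. In *Derl2* introns were at 1.3 FPKM in both mice, against exons at 7.1 and 8.6. The mean intron FPKM was at least 1 in 13 of 36 members, against 7.77% of all genes, and from 0.5 to under 1 in 16, against 12.8%. It was between 0 and 0.5 in 6 members, against 35.5%, and *Sdf2l1* was listed at 0 in both mice. The members also have higher exon levels than most genes. For *Sdf2l1*, 1 intron read would be worth 0.0871 and 0.172 FPKM. If its listed 0 is a count of 0 reads, which the values do not show, it allows up to 0.261 and 0.517 FPKM, for counting error only. For *Pdia5*, whose introns are long, rounding to 1 decimal can hide up to 23.4 reads in replicate 2. Its listed 0 there therefore does not show whether reads were present or absent.

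*Xbp1* had the highest intron level of the members. Its introns were at 27.9 and 16.2 FPKM, rank 28 among all genes. The introns of *Fkbp11* were at 9.3 and 3.7 FPKM, rank 88. *Derl3* followed at 3.1 and 3.8 FPKM and *P4hb* at 3.1 and 3.6. *Xbp1* introns were higher in replicate 1 while its exons were higher in replicate 2, and for *Fkbp11* both were higher in replicate 1. The introns of *Hspa5*, at 0.6 and 1.0 FPKM, were lower than those of all these genes, although its exons were at rank 82 of all genes.

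The ratio of exon to intron FPKM, on the log2 scale with 0.1 added to both, had a median of 5.01 over the 34 members whose exons averaged 1 FPKM or more and whose introns were above 0. Over all 9535 such genes the median was 3.52. Among genes with at least 10 exon FPKM the medians were closer, 5.28 for 29 members and 4.63 for 3078 genes. Several abundant chaperones lay at the top of that range. *Hspa5* had 502 times as much exon as intron FPKM in replicate 1 and 215 times in replicate 2, a higher mean ratio than 98.8% of the 3078 genes. *P4hb* exceeded 96.5% of them, *Atf4* 96.4%, *Ppib* 94.7% and *Calr* 93.8%. *Hsp90b1* and the less abundant *Fkbp2*, both at 91.9%, and *Canx*, at 91.4%, were close behind, while the abundant *Fkbp11* was at 72.0%. The intron values of *Hspa5* rest on an estimated 11 and 9 reads and those of *Atf4* on 4 and 5, so their ratios are imprecise. Those of *Fkbp2* rest on 8 and 1 reads, and its introns share 925 bp with *LOC114841036*.

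*Xbp1* and some genes of ER degradation had more intron signal relative to exons than the abundant chaperones. *Xbp1* had 12.4 and 31.4 times as much exon as intron FPKM and exceeded 35.0% of the 3078 genes. *Derl3*, with 6.94 and 7.61 times, exceeded 4.61%. *Herpud1* exceeded 14.6% of the genes, *Vcp* 17.1%, *Sel1l* 20.8% and *Derl1* 31.9%. The exon reads of *Vcp* and *Derl1* may be shared with the near copies of their coding sequences, so their ratios are uncertain. The same limit holds for the median of the degradation genes given below. Other degradation genes lay above the middle, with *Os9* at 85.3%, *Edem2* at 70.7%, *Edem3* at 57.3% and *Edem1* at 55.1%. By group, with genes under 10 FPKM included, the median log2 ratio was 3.84 over the 11 degradation genes and 4.09 over the 6 sensors and factors. Both lie above the 3.52 of all genes and below the other groups, which were at 4.77 over 2 soluble stress proteins, 5.42 over 6 chaperones and cofactors, 5.72 over 4 disulfide isomerases, 6.30 over 3 prolyl isomerases and 6.37 over 2 lectin chaperones. Across genes, exon and intron levels had a Spearman correlation of 0.465 over 35 members and 0.629 over 9845 genes, both from the same libraries.

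**Figure D2:**
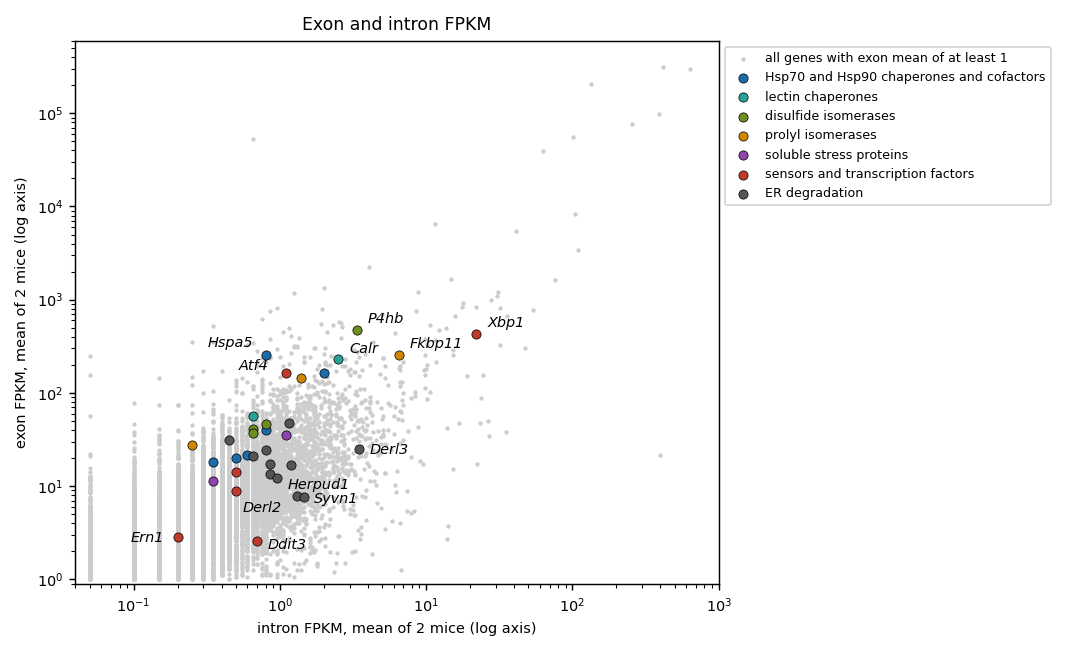
Mean exon FPKM against mean intron FPKM of the 2 mice, both on log axes, for all genes whose exons averaged 1 FPKM or more and whose introns were above 0 (grey) and for the members (colored by role). *Hspa5* lies at the upper left edge of the members, with 301.4 and 215.1 exon but 0.6 and 1.0 intron FPKM, while *Xbp1* lies farthest to the right at 27.9 and 16.2 intron FPKM. The columns of points at the left come from rounding to 1 decimal.

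On the deposited scale, differences between the mice were small for most members. Ratios are given as log2 of replicate 2 over replicate 1, with 1 added to each FPKM, and the replicate numbers carry no order. The median was -0.28 over 35 members with a mean of at least 1 and -0.08 over all 9845 such genes. Of these members, 25 were higher in replicate 1, or 71.4%, against 55.4% of all genes. The share depends on the scale: when each mouse was rescaled to a sum of 1000000, where caseins dominate the total, 35 members were higher in replicate 1, against 97.8% of all genes, and the median of all genes moved to -0.90. With replicate 2 centred on the median of all genes, 22 of 35 members were higher in replicate 1, or 62.9%, against 51.5%.

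A gap of over 2-fold between the mice was found for 2 of 35 members, against 5.9% of all genes. Both were higher in replicate 1, where 4.82% of all genes were over 2-fold higher. These genes were *Creld2*, at 16.9 and 5.9 FPKM, and *Ddit3*, at 4.0 and 1.1 FPKM. The share depends on the scale, with 2 of 35 members against 11.2% of all genes when 0.1 was added in place of 1, and 26 of 35 against 42.6% when each mouse was rescaled to a sum of 1000000. Intervals for counting error alone (exact Clopper-Pearson, 95%, on the estimated reads) were set on the log2 ratio with nothing added. For *Creld2* the ratio was -1.52, with an interval from -2.04 to -1.04 on an estimated 233 and 41 reads. For *Ddit3* it was -1.86, with an interval from -3.53 to -0.47, so its size is poorly known.

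Differences exceeded counting error for 23 of 35 members. Of these, 18 had an interval wholly below 0, against 30.7% of all genes with a mean of at least 1, and 5 an interval wholly above 0, against 20.8%. Intervals narrow with the number of reads, and the members were more abundant than most genes. For 12 the difference was not detectable at this depth. Those above 0 were *Pdia3* at 0.57, *Xbp1* at 0.55, *Dnajb9* at 0.44, *Derl3* at 0.43 and *Dnajc3* at 0.15. With 1 added and with the trend over exon GC content removed, *Dnajb9* and *Dnajc3* changed sign, to -0.05 and -0.08. Of those below 0, *Sdf2l1* and *Syvn1* did, to 0.07 and 0.13. With each mouse rescaled to a sum of 1000000 all 5 were below 0, *Xbp1* at -0.51, *Pdia3* at -0.48, *Dnajb9* at -0.60, *Derl3* at -0.61 and *Dnajc3* at -0.89. On the deposited scale *Xbp1* differed from most members in being higher in replicate 2, with an interval from 0.50 to 0.60, whereas *Hspa5* was at -0.49, from -0.55 to -0.43. These intervals compare the libraries, not conditions.

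**Figure D3:**
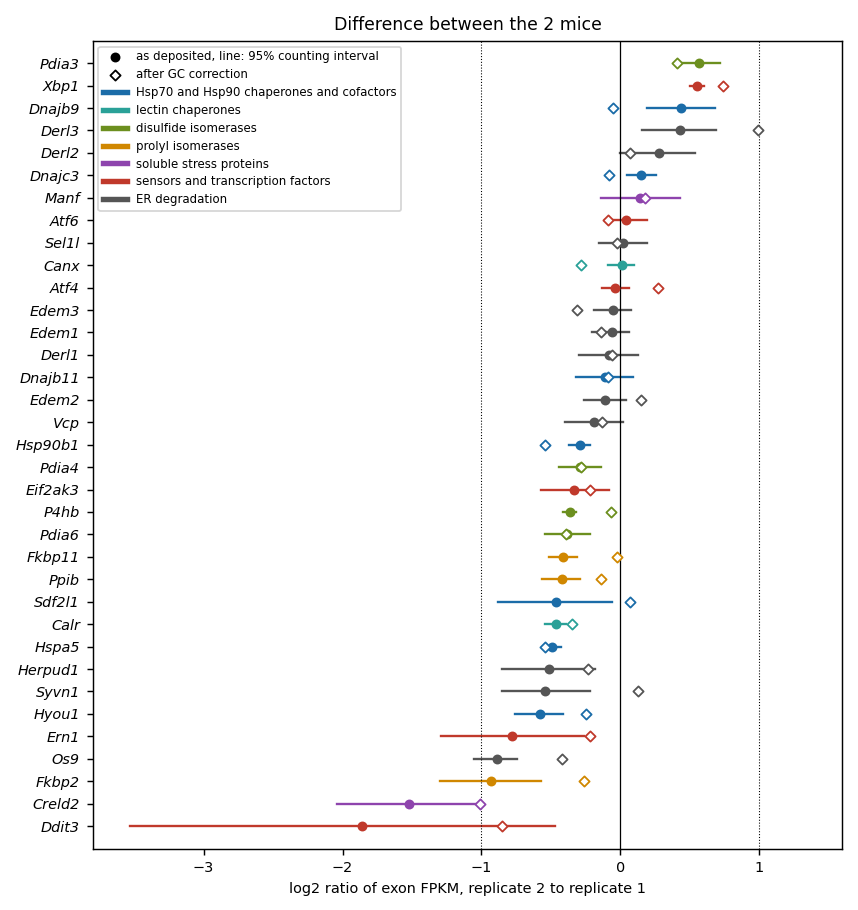
Log2 ratio of exon FPKM, replicate 2 to replicate 1, for the 35 members with a mean of at least 1. Filled circles are the deposited values with nothing added and lines are 95% counting intervals, which cover counting error only. Open diamonds are the ratios with 1 added after correction for exon GC content, and dotted lines mark 2-fold. *Pdia3*, at 0.57, and *Xbp1*, at 0.55, are at the top and *Ddit3*, at -1.86, is at the bottom.

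The ratio between the mice moved with the GC content of exons. Across genes, the Spearman correlation of the log2 ratio with exon GC content was -0.659 over 9839 genes and -0.614 over 35 members, in values that share the same libraries. After the trend over all genes was removed, the median of the members was -0.13, with 26 of 35 below 0, or 74.3%, against 49.9% of all genes. The gap of *Creld2* remained over 2-fold at -1.01, and that of *Ddit3* moved from -1.25 to -0.85. *Derl3*, whose exons have 57.6% GC, moved from 0.41 to 0.99. *Xbp1* moved from 0.55 to 0.74, and *Hspa5* moved from -0.48 to -0.54. *Dnajb9*, with the lowest GC content of the members at 38.3%, moved from 0.42 to -0.05, and *Fkbp11* moved from -0.41 to -0.02. The part of GC content and of the lower depth of replicate 2 in these differences was not tested.

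**Figure D4:**
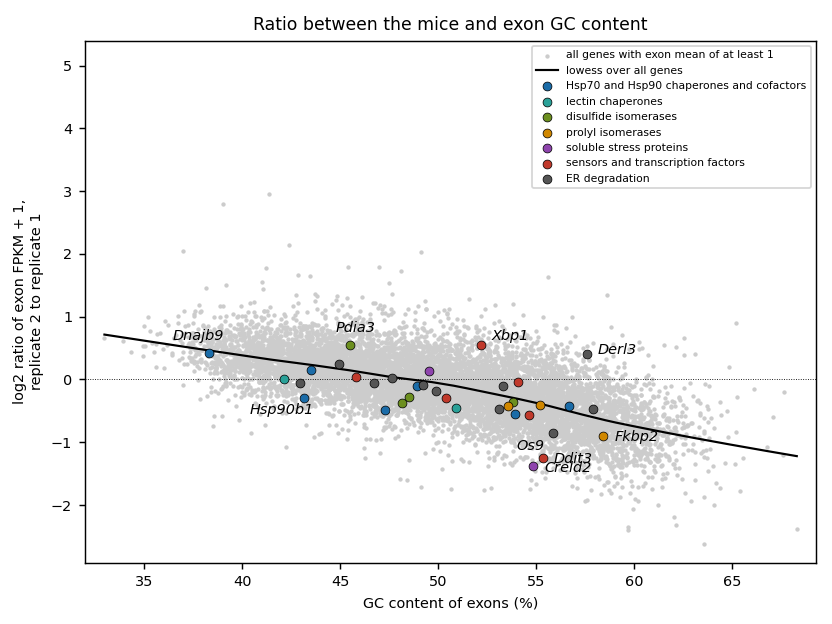
Log2 ratio of exon FPKM plus 1, replicate 2 to replicate 1, against the GC content of exons in percent, for all genes with a mean of at least 1 (grey) and for the members (colored by role). The black line is the lowess trend over all genes, which falls from low to high GC content. *Creld2*, at -1.38, lies well below the line and *Derl3*, at 0.41, well above it.

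Markers of several cell types differed between the mice as well, and the correction for GC content made some of these gaps smaller and others larger. Of the alveolar list, *Krt18* was at 145.0 and 57.6 FPKM and *Krt8* at 31.4 and 14.6. *Csn2* and *Csn3* were higher in replicate 2, and *Elf5* was similar in both. After the correction the log2 ratio of *Krt18* moved from -1.32 to -0.84 and that of *Krt8* from -1.05 to -0.53. That of *Csn2* moved from 2.15 to 1.87 and that of *Csn3* from 2.05 to 1.52. The 7 alveolar markers summed to 305800 and 789300 FPKM, with *Csn2* as the most abundant by its mean and none at 0. The 5 myoepithelial markers summed to 112.6 and 71.3 FPKM, led by *Myh11* at 69.2 and 38.8, and *Acta2* was listed at 0 in both. This list went both ways, as *Oxtr* was at 18.9 and 23.6. The widest gap in it was that of *Krt14*, at 17.9 and 5.4 FPKM, with a log2 ratio of -1.56 that moved to -1.02 after the correction. *Acta2* is abundant in any tissue with blood vessels, so a 0 in these files says only that a gene is listed at 0. The 5 adipocyte markers summed to 1292 and 1120 FPKM, led in their mean by *Cfd* at 692.0 and 436.5, with none at 0. The log2 ratio of *Cfd* moved from -0.66 to -0.03 after the correction. *Fabp4*, at 501.7 and 564.0, was above *Cfd* in replicate 2. The adipocyte list also went both ways, as *Adipoq* was at 85.3 and 113.0 FPKM. Its widest gap was that of *Plin1*, at 7.8 and 2.6 FPKM, with a log2 ratio of -1.29 that moved to -0.46 after the correction. The 5 fibroblast markers summed to 101.6 and 122.2 FPKM, led by *Dcn* at 42.9 and 78.4, with none at 0. This list went both ways as well, as *Col1a1* was at 23.5 and 11.2 and *Col1a2* at 20.5 and 10.2. After the correction their log2 ratios moved from -1.01 to -0.33 and from -0.94 to -0.53.

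Plasma cells, which are also rich in ER, had a detectable signal. Their 6 markers summed to 122.8 and 104.0 FPKM, with none at 0. *Jchain*, which joins secreted antibody units, made up most of it at 107.4 and 89.3 FPKM, and its log2 ratio moved from -0.26 to -0.73 after the correction for GC content. *Mzb1* was at 2.6 and 2.2 FPKM, and *Tnfrsf17* at 0.9 and 1.0. *Irf4* was at 2.8 and 5.0 FPKM, so this list went both ways too. The 4 endothelial markers summed to 50.5 and 43.7 FPKM, led by *Cdh5* at 17.3 and 17.4, and the 4 macrophage markers to 14.4 and 9.1, led by *Csf1r* at 5.9 and 3.9, with none at 0 in either list. The 4 T cell markers summed to 0.5 and 0.8 FPKM, led by *Cd4* at 0.3 and 0.3, with *Cd3e* listed at 0 in replicate 1. Of the red blood cell list, *Hbb-bs* was at 264.5 and 287.3 FPKM and *Alas2* at 6.7 and 7.5, and *Hba-a1* was not matched. The part of these cells in the levels of the members was not tested.

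Other genes of the pathway were counted at the same levels, and no test compared them with the members. Means of at least 1, 10 and 100 FPKM were reached by 48.0%, 15.2% and 1.02% of all genes. Of 36 other ER folding genes, 33 had a mean of at least 1 FPKM, 18 of at least 10 and 3 of at least 100. *Qsox1*, a sulfhydryl oxidase, was the highest of them and exceeded every member, at 1050.0 and 780.4 FPKM. *Prdx4*, a peroxiredoxin of the ER, was at 231.5 and 244.8 FPKM. *Selenof*, a selenoprotein that binds the folding sensor UGGT, was at 101.3 and 152.4 FPKM. These 3 genes act in or beside disulfide chemistry of the secretory pathway. The oxidases that recharge protein disulfide isomerase were lower, *Ero1l* at 5.6 and 6.0 FPKM and *Ero1lb* at 4.6 and 5.7. Between the mice, 2 of 33 were over 2-fold apart, with log2 ratios of -1.30 for *Fkbp10* and -1.03 for *Prkcsh*, and *Cnpy3* followed at -0.97. After the correction for GC content none of the 33 was over 2-fold apart, with *Fkbp10* at -0.74, *Prkcsh* at -0.47 and *Cnpy3* at -0.38. The value of *Fkbp10* in replicate 2 rests on an estimated 9 reads. *Pdia2* and *Clgn* were listed at 0 in both mice.

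Of 15 other UPR sensors and regulators, 12 had a mean of at least 1, 7 of at least 10 and none of at least 100. *Ppp1r15b*, which encodes a constitutive regulator of eIF2α dephosphorylation, was at 47.6 and 60.9 FPKM. *Rtcb*, the ligase that joins *Xbp1* mRNA after IRE1 has cut it, was at 45.3 and 32.9 FPKM, above *Ern1* in both mice. *Creb3*, a membrane-bound factor related to ATF6, was at 31.5 and 21.6 FPKM. No gene of this list was over 2-fold apart, and the widest log2 ratios were 0.71 for *Mbtps2*, 0.66 for *Eif2s1* and 0.56 for *Nck1*, which moved to 0.32, 0.28 and 0.19 after the correction for GC content. *Ern2*, the IRE1 gene of mucosal epithelia, was listed at 0 in both mice.

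Of 17 stress effectors downstream of ATF4 and DDIT3, 10 had a mean of at least 1, 4 of at least 10 and 1 of at least 100. That gene was *Nupr1*, a small stress-induced nuclear protein, at 592.5 and 398.7 FPKM. *Asns*, which encodes asparagine synthetase, was at 38.3 and 47.6 FPKM, and *Cebpg*, a partner of ATF4, was at 16.9 and 17.1. *Trib3*, a pseudokinase gene induced by CHOP, was close to *Cebpg* at 18.5 and 13.5 FPKM. *Atf3* was at 0.8 and 0.8 FPKM and *Chac1* at 1.3 and 0.4. These last 3 genes were chosen after their values were seen. None of the 10 was over 2-fold apart, and the widest log2 ratios were -0.90 for *Ppp1r15a*, -0.77 for *Atf5* and -0.57 for *Nupr1*, which moved to -0.40, -0.01 and -0.28 after the correction for GC content. *Fgf21* and *Gdf15* were listed at 0 in both mice.

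Of 26 other genes of ER degradation, 24 were matched, and *March6* and *Hm13* were not. Of the 24, 23 had a mean of at least 1, 16 of at least 10 and none of at least 100. *Selenos*, which recruits VCP to the membrane, was at 61.8 and 60.1 FPKM. *Aup1*, which recruits a ubiquitin-conjugating enzyme, was at 48.5 and 29.8 FPKM, and *Stt3b*, a subunit of oligosaccharyltransferase, had a mean of 31.2 ± 5.94 (SD, n = 2). Between the mice 1 of 23 was over 2-fold apart, *Erlec1* at a log2 ratio of 1.01, and *Herpud2* at 0.95 and *Rnf5* at 0.77 followed. After the correction for GC content 2 of 23 were over 2-fold apart, *Herpud2* at 1.08 and *Rnf5* at 1.03, while *Erlec1* was at 0.61. *Erlec1* and *Os9*, related lectins that act at the same step, lay on opposite sides, as *Os9* was at -0.86 and at -0.42 after the correction. *Rnf185* was listed at 0 in both mice.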

How the data were processed

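Total RNA of L10 mammary tissue was sequenced from 2 WT_wTbrg4 mice (stranded total RNA libraries, Illumina). As the study's methods describe, the authors aligned reads with STAR to mm10, collapsed the exons of UCSC known genes, counted reads on exons and introns with HTSeq, and made FPKM with DESeq2; the deposited FPKM have 1 decimal. Versions were not given in the sources used here. Whether counting used strand was not stated, so opposite-strand overlaps stay uncertain.

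Of 20550 rows, 35 without a usable or unique symbol were left out. Means, SDs, log2 ratios (1 added; 0.1 for exon over intron; mean exon FPKM of at least 1) and a lowess on exon GC content (30% of genes per window) were computed with Python 3.11.15, numpy 2.4.6, pandas 2.3.3, scipy 1.17.1 and statsmodels 0.14.6, and drawn with matplotlib 3.10.9. Lengths, GC content and positions came from RefSeq on GRCm38.p6 and covered 99.7% of genes. Near-identical copies, of at least 95% gap-compressed identity over at least 50% of a coding sequence, were sought with minimap2 2.31.

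Reads were estimated from values under 1.5 FPKM of genes with under 700 bp of exons: 1 read was worth 99.1 FPKM × bp in replicate 1 and 196 in replicate 2. Under this step 89.0% and 85.7% of the values were whole multiples within 0.05 FPKM, where rounding alone would give 56.9% and 29.3%. In each library the step was picked from a grid of values for the largest standardized excess over rounding alone. The excess is therefore no independent check of the step. Introns gave 99.8 to 99.9 and 196 to 198 under the 3 length limits tried (700, 1000 and 1500 bp). Lengths are RefSeq's and not the authors', so reads are approximate. The read-step and GC steps were tried on simulated data, and the outcome is not reported here.

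All members and the 7 chosen milk protein genes were named. Of each other pathway list, the 3 most abundant genes, at most 3 with the widest gap between the mice, and genes at 0 were named. Of cell type lists, the most abundant gene and genes at 0 were named. *Krt8*, *Krt18*, *Elf5* and *Alas2* were named outside this rule. So were *Adipoq*, *Plin1* and the ratios of *Csn3*, after their values were seen. Members and lists were chosen with earlier results of these data known. The read estimate, the definition of copies, the ratios between named members, the genes *Ero1l*, *Ero1lb*, *Mzb1*, *Tnfrsf17*, *Col1a1*, *Col1a2*, *Oxtr*, *Krt14*, *Irf4* and *Fabp4*, the GC correction of other lists, the order within each mouse, and the tolerances in the comparison of settings were chosen after seeing the data. The planned reading of protein ends was not run.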

Additional observations from a re-analysis of the deposited data

How the results depend on the processing

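No paired analysis was possible because the RNA-seq samples form 1 group. The number of members with at least 10 FPKM stayed within 1.5 times its value of 30 under each scaling and with either mouse left out. With each mouse rescaled to a sum of 1000000, the median of the members was 21.0 FPKM, the median log2 ratio between the mice was -1.22, 26 of 35 members were over 2-fold apart, against 42.6% of all genes, and 2 neighboring pairs did not overlap; in this scale the 10 most abundant genes hold 79.5% and 90.6% of the totals. With a filter of 10 FPKM the median log2 ratio was -0.14 and 1 of 30 members, *Creld2*, was over 2-fold apart, against 7.42% of all genes. With GC correction the values were -0.13 and 1 of 35, again *Creld2*, against 1.91%. Leaving out a mouse gave medians from 22.9 to 24.4 FPKM. The median log2 ratio of exon to intron was 5.12 with 0.05 added, 3.96 with 1 added, 5.28 at exon levels of at least 10, 4.96 at intron levels of at least 0.5, and 4.97 to 4.98 with a mouse left out. With 1 mismatch allowed, 17 members had an ERSE, against 1.72% of all genes, and their median of 27.5 FPKM was close to the 24.4 of the 15 without. By their order within each mouse, chosen after seeing the data, 12 neighboring pairs kept their order. The cause of these shifts was not tested.

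Leaving out the 5 members with a near copy or with an exon overlap of over 300 bp, an alternative chosen after seeing the data, gave a median of 25.2 FPKM and a median log2 ratio of -0.29. A log2 ratio was taken as unmoved within 0.1. Under GC correction 10 of 35 members stayed within that and 25 moved, against 76.1% of all genes. Of the 35, 1 fell under 2-fold (*Ddit3*) and 9 changed sign, against 23.4% of all genes, none of the 9 over 2-fold before. Under the common sum 10 changed sign, against 40.3%. The mean FPKM of single members moved by over 1 SD for 13 of 36 under the common sum and for 4 under median centring. Depth limits *Ddit3* and *Pdia5*, with an estimated 5 reads each in replicate 2.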
